A study of Arabidopsis thaliana with 6 samples.

Results

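Seedlings of 2 Arabidopsis thaliana mutants of cytosolic iron-sulphur (Fe-S) cluster assembly, nbp35-3 and nar1-4, were compared directly with each other. The comparison held the 2 arrays titled nbp35-3/- and the 2 titled nar1-4/-, 4 of the 6 arrays of the series, and each nbp35-3 array was set against the nar1-4 array of the same replicate number. It covered 22746 probe sets, all except the Affymetrix controls. The other 2 arrays, of wild type, entered no difference between the mutants and are printed beside it as levels. All 3 genotypes were in the Col-0 background and were harvested as entire seedlings, 2 weeks old, from MS plates at 22 °C with 16 h light and 8 h dark. The source name of the nbp35 samples carries another allele number, nbp35-4, and the labels explain neither this nor the sign "/-", so zygosity is unknown here. Nothing in the labels says what arrays of 1 replicate number share, or whether plants were pooled, and p-values measure only the spread between these arrays.

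NBP35 is a scaffold on which Fe-S clusters are built in the cytosol, and NAR1 acts after it, between the scaffold and the complex that hands clusters to cytosolic and nuclear proteins. Such proteins include DNA polymerases, DNA helicases, DNA glycosylases and a ribosome recycling factor. Mitochondria supply a sulphur compound for this assembly, and in plants a disturbed mitochondrion switches on a set of nuclear genes through membrane-tethered NAC transcription factors, a response called mitochondrial retrograde signalling. Neither mutated gene was named by a probe set (0 for NAR1, AT4G16440, and 0 for NBP35, AT5G50960). The genotypes were therefore not checked in the data.

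The values were log2 expression, and a difference of 1 is 2-fold. The replicate number moved the arrays more than the genotype did. The 2 mutants correlated across probe sets at 0.9921 within number 1 and 0.9884 within number 2, while the 2 arrays of nar1-4 correlated at 0.9697 and those of nbp35-3 at 0.9698. The nbp35-3 replicate 2 array correlated at 0.9772 with nar1-4 replicate 1, above its own genotype's other array, so single genes and list medians below are mostly given within each number as well as over both. A difference within number 1 does not use that array. LHCB4.1, a light-harvesting protein of leaves, stood at 12.86 to 13.17 on the 4 mutant arrays and PYK10, a beta-glucosidase of roots, at 11.70 to 12.17, so leaf and root transcripts were both present.

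Mitochondrial stress genes stood lower in nbp35-3 than in nar1-4, led by AT2G04050 at 7.94-fold. Of the 13 measured genes written as mitochondrial retrograde response genes, 11 were lower in nbp35-3 within both numbers, against 21.8% of all 13286 named genes. The median difference over the 13 was -0.82 on the log2 scale, where that of all named genes was 0.02. The median was -0.40 within number 1, -1.24 within number 2, and -0.52 over both without the 5 members already known to differ. A second set, led by the transporter gene AT5G14940, the hydrolase gene AT1G08310 and the starch-linked gene QQS, stood higher in nbp35-3. Of 6 measured iron deficiency genes, 3 were lower in nbp35-3 within both numbers, against 21.8% of named genes. The median over the 6 was -0.20 within number 1 and -1.46 within number 2. In the test across all probe sets (limma, replicate number as a block, Benjamini-Hochberg adjustment) 0 passed an adjusted p of 0.05, a background of 0%, and the smallest adjusted p was 0.152. At an unadjusted p under 0.05 there were 1263 probe sets, or 5.55%, with 586 higher (2.58%) and 677 lower (2.98%) in nbp35-3, and without the replicate block 115 and 102. Of all probe sets 27.8% were higher and 22.8% lower in nbp35-3 within both numbers, by any amount. The fit called 105 probe sets without nbp35-3 replicate 1 and 63 without nbp35-3 replicate 2, each then resting on 1 array of that mutant. With all arrays no gene named below passed, so each is described by its values.

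The differences between the mutants in number 1 and in number 2 were almost unrelated across probe sets, with a Pearson correlation of -0.014 and a Spearman correlation of 0.002. This is a description across 22746 probe sets that share the arrays and their normalization. At least 2-fold differences were found for 288 probe sets within number 1 (142 higher, 146 lower in nbp35-3) and for 374 within number 2 (186 higher, 188 lower). A gap of 2-fold or more that kept its direction across both numbers was found for 30 probe sets (0.132%), 8 higher (0.0352%) and 22 lower (0.0967%) in nbp35-3. A further 32 (0.141%) were 2-fold apart in opposite directions, so a recurring gap was no more common than a reversed one. At 1.5-fold there were 51 higher (0.224%), 92 lower (0.404%) and 186 opposite (0.818%).

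**Figure D1:**
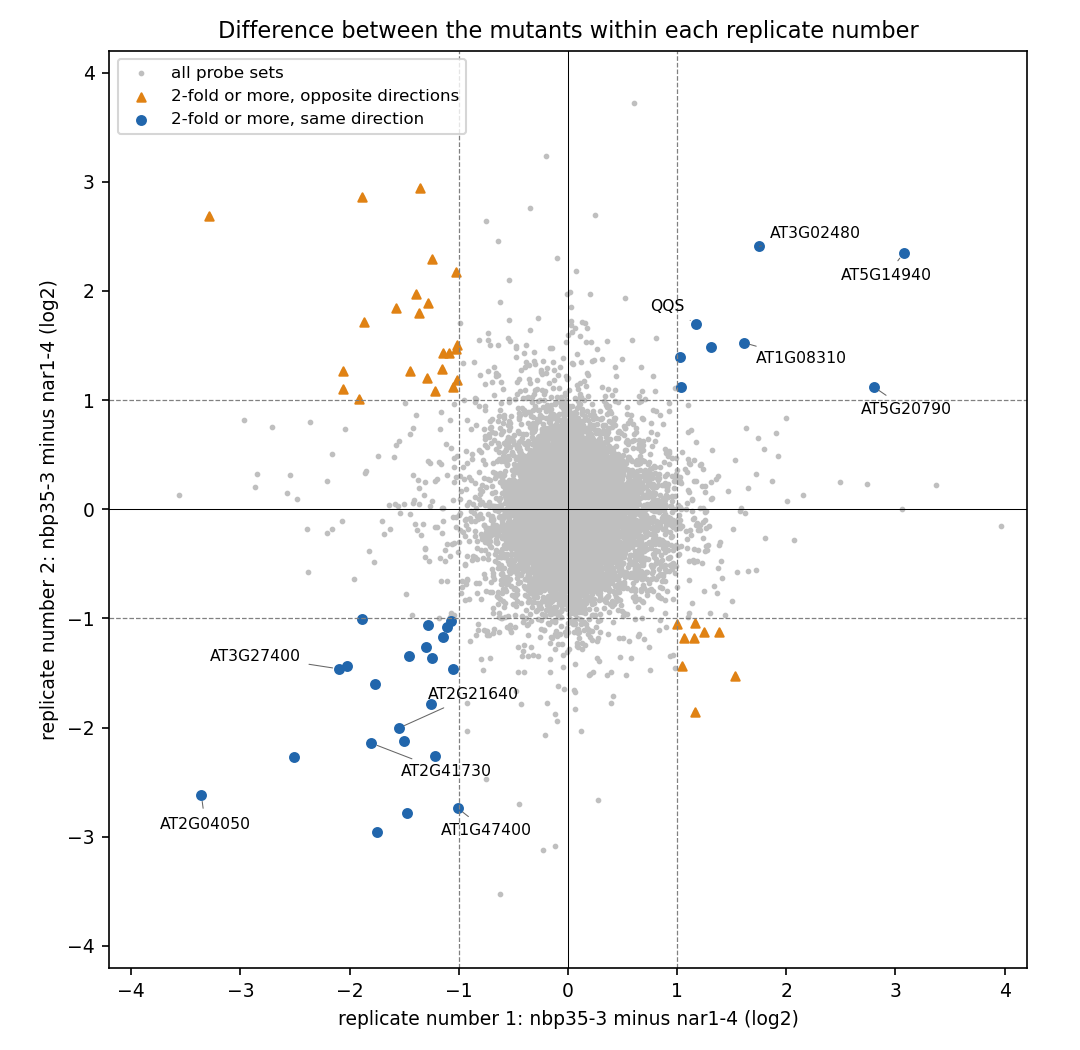
Each point is a probe set, with the log2 difference nbp35-3 minus nar1-4 within replicate number 1 on the x axis and within number 2 on the y axis, and dashed lines mark 2-fold. The 30 blue points were at least 2-fold apart the same way in both numbers and the 32 orange points in opposite ways, around a cloud with no slope.

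Of the 30 recurring probe sets 18 named 1 gene, 12 lower and 6 higher in nbp35-3. AT2G04050, a gene of the MATE family of toxin efflux transporters, stood at 6.51 and 6.41 in nar1-4 replicates 1 and 2, at 3.15 and 3.79 in nbp35-3, and at 2.98 and 3.51 in wild type. Only the nar1-4 arrays were high, and the genotypes did not overlap between the mutants. The difference was -2.99 ± 0.20 (limma SE, which also draws on the spread of other probe sets, 2 arrays per genotype) on the log2 scale. It was -3.36 within number 1 and -2.62 within number 2 (limma adjusted p = 0.152). The wild-type and nbp35-3 replicate 1 values lay under 3.55, the first quartile of probe set means, so the fold starts from a dim signal.

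AT2G41730 stood at 7.74 and 7.57 in nar1-4, at 5.93 and 5.43 in nbp35-3, and at 6.36 and 6.49 in wild type. Here the mutants lay on opposite sides of wild type in both numbers, nar1-4 by 1.38 and 1.09 and nbp35-3 by -0.42 and -1.06. These 2 comparisons share the wild-type arrays. The direct difference was -1.97 ± 0.18, a 3.92-fold gap (limma adjusted p = 0.211), and its probe set is of the kind whose probes also match other sequences. AT2G21640, known as UPOX for its induction by oxidative stress and coding for a mitochondrial protein, stood at 7.29 and 7.11 in nar1-4, at 5.74 and 5.11 in nbp35-3, and at 5.37 and 5.82 in wild type. Both nar1-4 arrays again stood above the other 4, and the mutants were 3.43-fold apart (log2 -1.78 ± 0.25).

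Cell wall genes were among the rest of the lower set. ATPMEPCRB (AT4G02330), a pectin methylesterase, which removes methyl groups from the pectin of cell walls, stood at 4.19 and 6.43 in nar1-4, 2.42 and 4.82 in nbp35-3, and 2.64 and 4.43 in wild type. Every genotype stood higher in number 2 than in number 1, yet nar1-4 was the highest genotype within each number, by 1.77 and 1.60 over nbp35-3. AT3G27400, of the pectate lyase family, stood at 5.82 and 6.36 in nar1-4, 3.72 and 4.89 in nbp35-3, and 4.00 and 5.37 in wild type. AT2G01610, of the pectin methylesterase inhibitor family, stood at 6.25 and 6.19 in nar1-4, 4.79 and 4.85 in nbp35-3, and 4.84 and 5.86 in wild type. For AT2G01610 the gap to wild type lay with nar1-4 in number 1 (1.40 against -0.05) and with nbp35-3 in number 2 (0.33 against -1.01). The words of the gene table found 6 pectin genes, a list chosen after these values were seen that lacks AT3G27400 and AT2G01610. In it ATPMEPCRB alone was 2-fold apart in both numbers. The median of the 6 mean differences was 0.13, of the opposite sign to the medians within number 1 (-0.04) and number 2 (-0.05).

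Other genes lower in nbp35-3 included members of the lectin, lipid transfer, lipase and tRNA synthetase families. AT5G03350, of the legume lectin family, stood at 5.84 and 8.71 in nar1-4, 4.62 and 6.44 in nbp35-3, and 5.02 and 6.99 in wild type. AT4G12490, which codes for a small protein of the lipid transfer type, stood at 5.86 and 8.52 in nar1-4, 4.36 and 6.40 in nbp35-3, and 4.53 and 5.05 in wild type. In AT5G03350 and AT4G12490 the nar1-4 array was the highest of its number, and the mutants differed by more within number 2 (-2.26 and -2.12) than within number 1 (-1.22 and -1.50). AT5G45670, of the GDSL lipase family, stood at 6.10 and 7.89 in nar1-4, 4.82 and 6.83 in nbp35-3, and 5.56 and 7.76 in wild type. AT5G45670 differed from the others in that nbp35-3 was the mutant further from wild type, by -0.73 and -0.93 against 0.55 and 0.12 for nar1-4. AT1G17960, of the threonyl-tRNA synthetase family, stood at 5.62 and 4.63 in nar1-4, 3.74 and 3.63 in nbp35-3, and 3.66 and 3.36 in wild type. AT5G05250 stood at 5.92 and 9.09 in nar1-4 and 4.62 and 7.83 in nbp35-3, a gap of nearly the same size in each number (-1.30 and -1.26), although every genotype stood far higher in number 2. AT1G47400, the last of the 12, is described with the iron genes.

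The 6 named genes higher in nbp35-3 differed in where wild type lay. AT5G14940, of the NPF family of nitrate and peptide transporters, stood at 3.77 and 3.63 in nar1-4, 6.84 and 5.98 in nbp35-3, and 6.76 and 6.00 in wild type. It was the only one of the 6 in which nar1-4 lay more than 2-fold below wild type in both numbers while nbp35-3 lay within 0.08 of it. The mutants were 6.54-fold apart (log2 2.71 ± 0.20, limma adjusted p = 0.152). AT1G08310, which codes for an alpha/beta hydrolase, stood at 6.48 and 6.18 in nbp35-3, 4.87 and 4.66 in nar1-4, and 4.70 and 4.59 in wild type. QQS (AT3G30720), an Arabidopsis gene known for its effect on leaf starch, stood at 6.28 and 6.36 in nbp35-3, 5.11 and 4.66 in nar1-4, and 4.99 and 5.21 in wild type. For AT1G08310 and QQS both nbp35-3 arrays were above the other 4, by a direct difference of 1.57 ± 0.12 and 1.43 ± 0.19.

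AT5G20790, a gene known to respond to phosphate starvation, stood at 6.49 and 4.96 in nbp35-3, 3.69 and 3.83 in nar1-4, and 3.56 and 3.97 in wild type. Both nbp35-3 arrays were the highest, but replicate 1 far more so (2.80 within number 1, 1.12 within number 2). AT2G16980, of the major facilitator transporters, stood at 6.14 and 5.36 in nbp35-3, 5.10 and 4.25 in nar1-4, and 5.26 and 4.82 in wild type, with nbp35-3 highest and nar1-4 lowest within each number. AT3G02480, a late embryogenesis abundant protein gene, stood at 6.97 and 8.88 in nbp35-3, 5.22 and 6.47 in nar1-4, and 10.49 and 5.50 in wild type. The wild-type arrays of AT3G02480 lay on both sides of the mutants, and its SE of 1.61 around a difference of 2.08 reflects that.

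**Figure D2:**
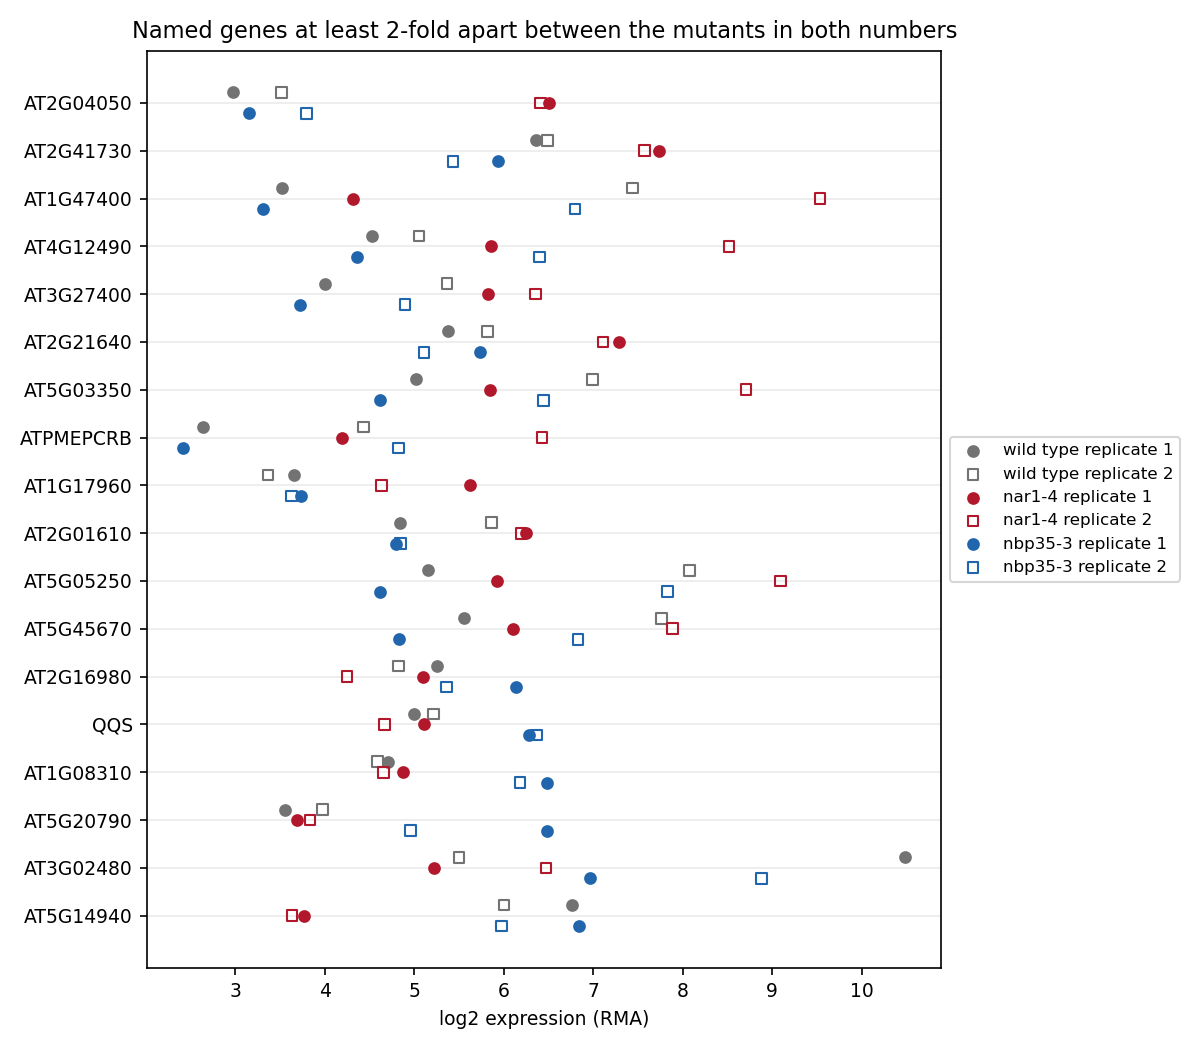
Log2 expression (x axis) of the 18 named genes at least 2-fold apart between the mutants in both numbers, with filled circles for replicate 1 and open squares for replicate 2 of each genotype. In the upper 12 rows nar1-4 (red) lies right of nbp35-3 (blue) within each replicate, and in the lower 6 rows it lies left, while wild type (grey) lies with nbp35-3 for AT2G04050 and AT5G14940 and with nar1-4 for AT1G08310 and QQS.

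The remaining 12 recurring probe sets, 10 lower and 2 higher, are unnamed here. Probe set 254805_at stood at 7.02 and 9.39 in nar1-4 and 4.51 and 7.12 in nbp35-3, and 267026_at at 4.75 and 5.69 in nar1-4 and 3.01 and 2.74 in nbp35-3. Probe set 245496_at stood at 4.88 and 5.01 in nar1-4 and 6.20 and 6.49 in nbp35-3, and 258856_at at 7.72 and 6.40 in nar1-4 and 8.75 and 7.79 in nbp35-3. For 245496_at the wild-type arrays, at 6.59 and 6.22, lay with nbp35-3.

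The other genes among the 10 of lowest p each way had smaller differences. A low p in this fit favours genes with similar differences in both numbers, so agreement between the numbers follows in part from that choice. NRPC1, the largest subunit of RNA polymerase III, stood at 5.02 and 5.24 in nar1-4 and 3.97 and 4.27 in nbp35-3, with wild type in between at 4.36 and 4.96. WNK9, a protein kinase, differed by 0.83 ± 0.13, AT1G17430, of the alpha/beta hydrolases, by 0.76 ± 0.12, AT3G43110 by 0.77 ± 0.14 and AT1G62660, a vacuolar invertase, which splits sucrose, by 0.66 ± 0.12, each higher in nbp35-3 within both numbers. Within numbers 1 and 2 the gaps were 0.67 and 0.99 for WNK9, 0.68 and 0.84 for AT1G17430, 0.76 and 0.79 for AT3G43110, and 0.69 and 0.62 for AT1G62660. AT1G62660, the brightest, stood at 10.06 and 9.36 in nbp35-3, 9.37 and 8.74 in nar1-4 and 9.68 and 8.99 in wild type. AT1G14220, of the T2 ribonucleases, differed by 0.93 ± 0.15 (1.12 and 0.73) and CYP71B22, a cytochrome P450, by 0.73 ± 0.12 (0.76 and 0.71). In WNK9, AT1G17430, AT1G14220, CYP71B22, AT3G43110 and AT1G62660 the wild-type array lay above the nar1-4 array of its number. The limma adjusted p of NRPC1 and these 6 genes was 0.549 to 0.619.

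The mitochondrial retrograde list held 24 written genes, of which 13 were named by a probe set. Of the 13, 11 were lower in nbp35-3 within both numbers, where 21.8% of 13286 named genes were, and 0 were higher in both, where 28.8% were. An unadjusted p under 0.05 with a lower value was found for 10 of the 13, against 2.62% of named genes, and at least 1.5-fold lower in both numbers for 5, against 0.256%. Within number 1 the median over the 13 was -0.40 and within number 2 it was -1.24, beside 0.01 and 0.04 over all named genes. Since 5 of the 13 (AT2G04050, AT2G04070, AT2G21640, AT2G41730 and AT2G32020) were known to differ from earlier results of these data, the other 8 were also taken alone. The whole list was written with those results known, so neither the 13 nor the 8 are an independent check. Among those 8, 6 were lower in both numbers, 5 had an unadjusted p under 0.05, and the median was -0.52 (-0.30 within number 1, -0.84 within number 2). At least 1.5-fold lower in both numbers was found for 0 of the 8, so the 5 past that rule were the known members.

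Members differed in how far nar1-4 stood above wild type and in whether nbp35-3 stood below it. AT2G04070, a second MATE transporter gene beside AT2G04050 in the genome, stood at 5.20 and 6.20 in nar1-4, 4.27 and 4.16 in nbp35-3, and 4.15 and 4.14 in wild type. NDB4, an external NAD(P)H dehydrogenase that bypasses respiratory complex I, stood at 4.51 and 4.78 in nar1-4, 4.14 and 3.44 in nbp35-3, and 3.97 and 3.83 in wild type. In both genes nar1-4 was the highest genotype in each number, and the mutants were further apart within number 2. AT2G32020, of the GNAT acetyltransferases, stood at 5.62 and 5.69 in nar1-4, 5.03 and 4.79 in nbp35-3, and 5.35 and 5.22 in wild type. AT5G51440, a small heat shock protein of mitochondria, stood at 4.05 and 5.20 in nar1-4, 3.64 and 3.96 in nbp35-3, and 3.33 and 4.71 in wild type. AT5G51440 also stands in the heat shock list, whose median was 0.06. Within number 2, nbp35-3 differed from wild type by 0.02 in AT2G04070, -0.40 in NDB4, -0.43 in AT2G32020 and -0.75 in AT5G51440. For nar1-4 the same differences were 2.06, 0.95, 0.47 and 0.49.

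The weaker members were uneven. AT5G14730 differed by -0.28 and -0.72 within the numbers, AT1G05060 by -0.32 and -0.40, and AT2G03130, near the floor of the arrays at 2.84 to 3.22, by -0.23 and -0.38. AT5G09570, a small mitochondrial twin-cysteine protein gene, stood at 6.38 and 7.59 in nar1-4 and 6.44 and 5.76 in nbp35-3, so that its difference lay within number 2 alone (0.06 and -1.83). NDB2, another external NAD(P)H dehydrogenase, differed likewise by 0.01 and -0.96. AT5G43450 had the reverse pattern, with -1.03 within number 1 and -0.07 within number 2. AOX1A, the alternative oxidase that usually marks this response, was among the 11 genes of the list not analysed here. Whole seedlings do not tell fewer cells of a type from less RNA per cell. The 4 root markers averaged 7.52 to 7.58 on the nar1-4 arrays and 8.26 and 7.16 on nbp35-3 replicates 1 and 2, and the 4 photosynthesis genes 11.59 to 11.87 and 11.37 to 12.04, and their part in these differences was not tested.

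**Figure D3:**
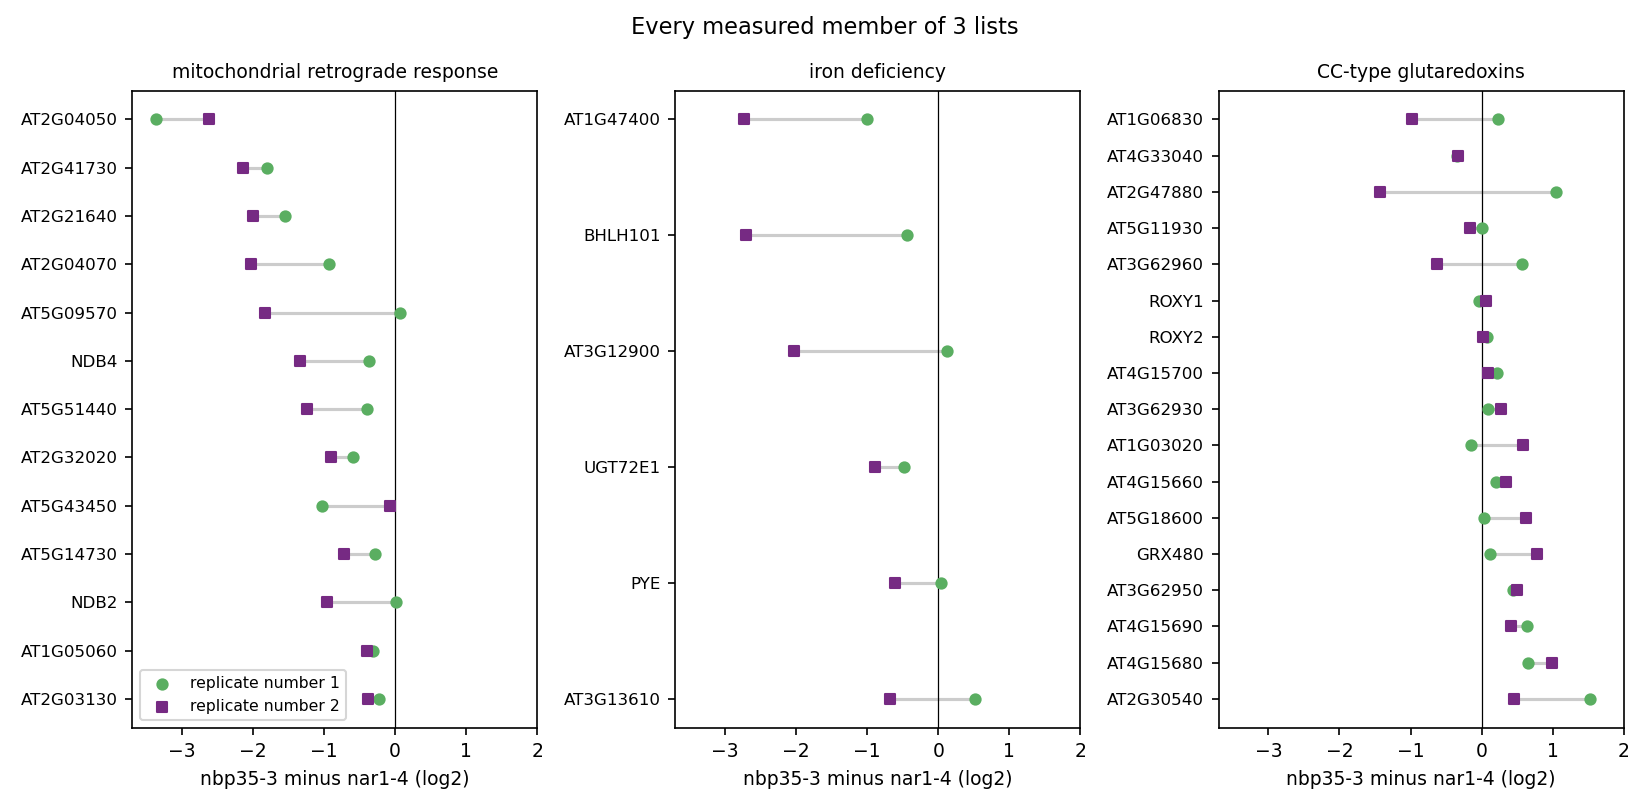
Log2 difference nbp35-3 minus nar1-4 (x axis) for every measured member of 3 lists, with green circles for replicate number 1 and purple squares for number 2. In the mitochondrial list 11 of 13 genes lie left of 0 in both numbers, in the iron deficiency list the purple squares lie further left than the green circles, and 10 of 17 glutaredoxin genes lie right of 0 in both.

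Iron deficiency genes separated the mutants mainly within number 2, in which each genotype stood higher than in number 1 for all 6 measured genes. Of 25 written genes 6 were measured, the others not being named alone by a probe set. The median over the 6 was -0.20 within number 1 and -1.46 within number 2. AT1G47400, which codes for a short iron-signalling peptide of the IRON MAN family, stood at 4.31 and 9.53 in nar1-4, 3.30 and 6.80 in nbp35-3, and 3.53 and 7.44 in wild type. BHLH101, a bHLH regulator switched on when iron is short, stood at 3.72 and 8.55 in nar1-4, 3.28 and 5.85 in nbp35-3, and 3.10 and 6.46 in wild type. Both genes were highest in nar1-4 within each number, and the number 2 array of every genotype was above its number 1 array. UGT72E1, a glycosyltransferase of phenolic compounds, was lower in nbp35-3 by 0.48 and 0.89 within the numbers, from 7.17 and 7.91 in nar1-4. These 3 of 6 genes had an unadjusted p under 0.05, against 2.62% of named genes lower at that p, and the same 3 were lower in both numbers, against 21.8%. The 4 root markers, whose part here was not tested, averaged 7.52 on nar1-4 and 7.16 on nbp35-3 in number 2, and 7.58 and 8.26 in number 1.

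The other 3 iron genes had opposite signs within the numbers. AT3G12900, known as S8H, an enzyme of coumarin synthesis by which roots mobilise iron, stood at 3.88 and 6.41 in nar1-4 and 4.00 and 4.38 in nbp35-3, a gap of 0.12 and -2.03. AT3G13610, known as F6'H1, the enzyme at the entry of that pathway, differed by 0.51 and -0.68. PYE, a regulator of iron balance, differed by 0.04 and -0.60. Within number 1 AT1G47400 alone of the 6 was at least 2-fold apart.

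CC-type glutaredoxins, small plant proteins that use glutathione and act with TGA transcription factors, leaned the other way. Of 21 genes 17 were measured, 10 of them higher in nbp35-3 within both numbers, against 28.8% of named genes, and 1 lower, against 21.8%. The median was 0.20 within number 1 and 0.27 within number 2, and 4 had an unadjusted p under 0.05, each higher, against 2.48%. AT4G15680 stood at 7.55 and 8.92 in nbp35-3, 6.90 and 7.93 in nar1-4, and 6.29 and 6.59 in wild type. AT4G15690, its neighbour, stood at 7.29 and 7.67 in nbp35-3, 6.64 and 7.26 in nar1-4, and 6.39 and 6.51 in wild type. Both genes had the same order in each number, nbp35-3 over nar1-4 over wild type, and as close tandem copies they may share probe signal. AT4G15660 and AT4G15700 have neighbouring locus numbers in the same run, and AT3G62930 and AT3G62950 lie close to each other. The 10 genes higher in both numbers are therefore not 10 separate observations. AT2G30540 differed by 1.53 within number 1 and 0.45 within number 2, and stood at only 4.60 in nar1-4 replicate 1. AT3G62950 differed by 0.44 and 0.50.

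The others in this family were close to 0 or divided between the numbers. AT4G15660, AT4G15700, AT5G18600, AT3G62930, GRX480 and ROXY2, the last an anther development gene, had means 0.05 to 0.45 higher in nbp35-3, each with 2 positive differences. AT4G33040 was the 1 gene lower in both numbers (-0.34 and -0.33). AT2G47880 differed by 1.05 within number 1 and -1.43 within number 2, AT3G62960 by 0.57 and -0.62, and AT1G06830 by 0.23 and -0.97. AT1G03020 differed by -0.15 and 0.58, and AT5G11930 and ROXY1, a petal development gene, by at most 0.16 in size within a number.

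Of 30 lists written by locus, 19 had at least 3 measured members, and in 11 of the 19 the median had the same sign in both numbers. This is a count near what single probe sets show, 27.8% being higher and 22.8% lower in both. Cytosolic and nuclear Fe-S proteins, the clients of the pathway itself, had a median of -0.12 over 6 genes (-0.07 and -0.06 within the numbers), from -0.15 to 0.05. An unadjusted p under 0.05 was found for 0 of these 6, where 2.48% of named genes were higher and 2.62% lower at that p, so a list of this size would often have none. Organellar Fe-S assembly had a median of 0.01 over 6 genes (0.05 and -0.05 within the numbers) and cytosolic Fe-S assembly -0.03 over 2. DNA damage genes had a median of 0.11 over 2 genes (0.14 and 0.08). Among DNA replication genes, the licensing factor PRL was lower in nbp35-3 by 0.28 and 1.01 within the numbers, and the list's median over 2 genes was -0.38 (-0.01 and -0.75). The G2 and M phase list had a median of -0.20 over 3 genes (-0.21 and -0.11).

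Stress lists outside the mitochondrial one had smaller medians. Oxidative stress genes had a median of -0.18 over 5 (-0.44 and -0.08 within the numbers), with AT1G26420 at -0.99 and -0.19. Antioxidant enzymes had a median of -0.06 over 5 (0.10 and -0.13). Tau class glutathione transferases had a median of 0.01 over 11 (0.02 and 0.01), with GSTU20 lower by 0.87 and 0.43. Cold and dehydration genes had a median of -0.31 over 5 (-0.16 and -0.37), with COR15B, a chloroplast protective protein, at 6.83 and 7.06 in nar1-4 and 5.71 and 6.69 in nbp35-3. In the heat shock list, with medians of 0.38 and -0.25 within the numbers, HSA32, needed to keep acquired heat tolerance, was higher in nbp35-3 by 0.90 and 0.21. WRKY53, a senescence regulator, stood at 4.29 and 3.70 in nar1-4 and 3.02 and 3.23 in nbp35-3, levels near the first quartile of the arrays, and was 1 of 2 measured senescence genes. Jasmonate response genes had a median of 0.49 over 4 (0.21 and 0.47 within the numbers), with 3 higher in both numbers, against 28.8% of named genes. Among these 4, 0 had an unadjusted p under 0.05. The 3 include PDF1.2 and PDF1.2b, and the probe set of PDF1.2b is of the kind whose probes also match other sequences. The 3 may therefore not be separate observations. Salicylic acid and defence had 1 measured gene, GRX480.

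**Figure D4:**
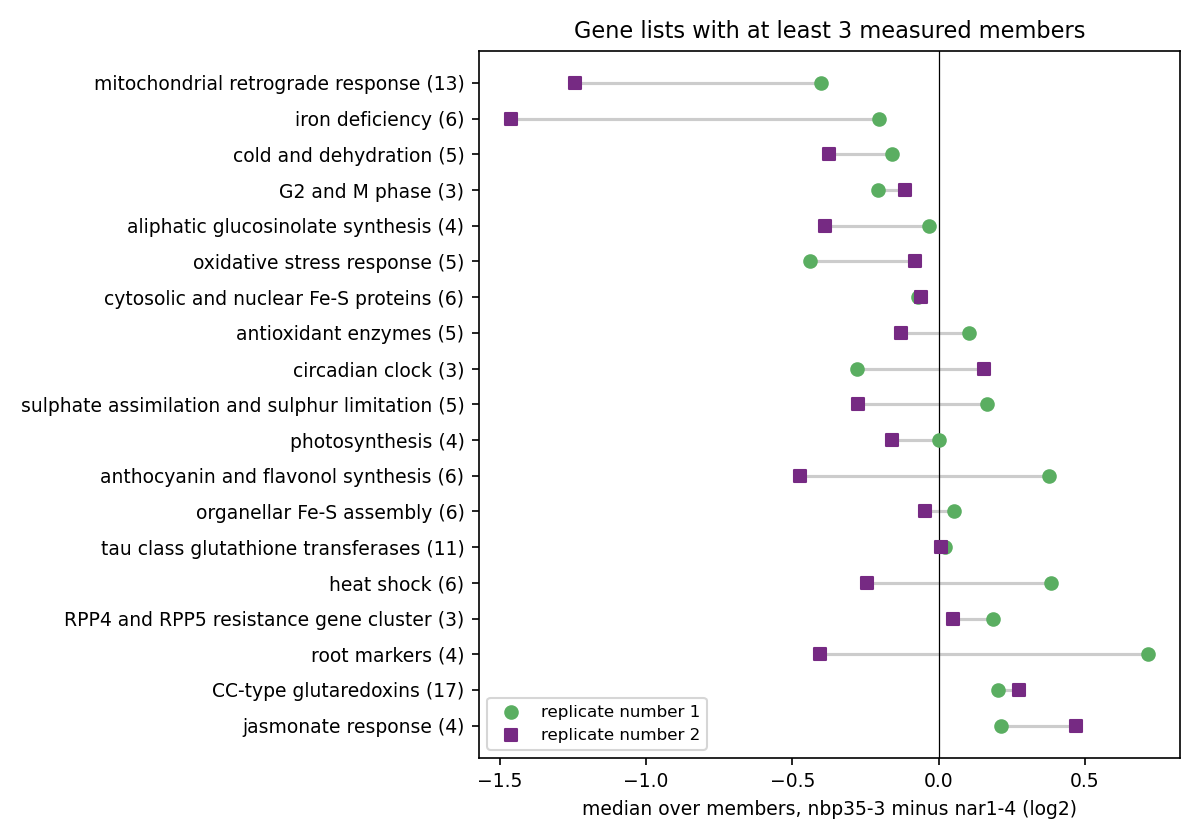
Median log2 difference nbp35-3 minus nar1-4 (x axis) over the measured members of each of 19 gene lists (number of members in brackets), with green circles for replicate number 1 and purple squares for number 2. The mitochondrial retrograde list lies at -0.40 and -1.24, and root markers, anthocyanin synthesis and heat shock lie on opposite sides of 0 in the 2 numbers.

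Sulphur, resistance and secondary metabolism lists held single genes that stood apart. APS4, which codes for an ATP sulfurylase, the first enzyme of sulphate assimilation, stood at 7.87 and 7.87 in nar1-4, 8.39 and 8.41 in nbp35-3, and 8.86 and 8.55 in wild type, so that both mutants lay under wild type and nar1-4 the lower. AT1G04770, known as SDI2, of the sulphur deficiency induced proteins, was lower in nbp35-3 by 0.40 and 0.28, and the sulphur list had a median of -0.05 over 5, with opposite signs within the numbers (0.16 and -0.27). In the RPP4 and RPP5 cluster of disease resistance genes, AT4G16920 was higher in nbp35-3 by 0.69 and 0.59, and its neighbour AT4G16900 was lower by 0.67 and 0.41. The medians were -0.19 over 4 aliphatic glucosinolate genes (-0.03 and -0.39), 0.01 over 6 anthocyanin genes, -0.06 over 3 clock genes (-0.28 and 0.15), -0.02 over 4 photosynthesis genes (0.0013 and -0.16) and 0.15 over 4 root markers. Root markers differed by a median of 0.72 within number 1 and -0.41 within number 2, and anthocyanin genes by 0.38 and -0.47. Phosphate starvation had 1 measured gene, AT5G20790, and starch and sugar response 2, of which the other than QQS, APL3, differed by -0.02. QQS was also 1 of 2 measured genes of the imprinted and silenced list, in which MPC differed by 0.03. Flowering had only AGL24, at 0.44 (0.24 and 0.63), and the embryo and seed list 2 genes near the floor of the arrays, with a median of 0.31 that had opposite signs within the numbers (-0.16 and 0.78).

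Gene families found by their words in the gene table had small medians, from -0.05 to 0.13. The medians were 0.03 over 43 UDP-glycosyltransferases (0.02 and 0.14 within the numbers), 0.09 over 24 cytochrome P450 genes (0.01 and 0.19) and 0.13 over 7 auxin response genes (0.03 and 0.17). The medians had opposite signs within the numbers for 30 expansin and xyloglucan genes (0.07 over both, -0.03 and 0.04) and 12 glutathione transferases (0.05, then 0.04 and -0.07). So did those for 7 genes matched by peroxidase words (-0.05, then 0.05 and -0.02) and 7 WRKY factors (-0.04, then -0.13 and 0.07). The peroxidase words also matched PRXIIF, a peroxiredoxin, so that median is not of class III peroxidases alone. Single members with an unadjusted p under 0.05 were UGT85A2, lower in nbp35-3 by 0.43 and 0.42 within the numbers, UGT71C1 at 1.03 and 0.26, EXLB1 at 0.59 and 0.62, XTH20 at -0.44 and -0.46, and XTH32 at -0.21 and -0.39. Most of the 24 P450 genes were of the CYP71B group. Of the 24, 11 were higher in both numbers, against 28.8% of named genes, and 5 lower, against 21.8%. At an unadjusted p under 0.05, 3 were higher, against 2.48%, and 1 lower, against 2.62%. Besides CYP71B22, given above, CYP71B35 differed by 0.67 and 0.22, CYP71B27 by 0.23 and 0.51 and CYP71B36 by -0.31 and -0.40. The peroxidase AT5G64120 differed by -0.76 and -0.63, and WRKY47 by -0.52 and -0.22.

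The 32 probe sets 2-fold apart in opposite directions named 1 gene in 17 cases, which were singled out after their values were seen. In 10 of the 17 nbp35-3 was lower within number 1 and higher within number 2, and in 7 the reverse. Among the 10 were CHI (AT2G43570), a chitinase, at 6.60 and 5.43 in nar1-4 and 4.53 and 6.69 in nbp35-3, and AT5G39580, of the peroxidase family, at 7.30 and 6.32 in nar1-4 and 5.72 and 8.16 in nbp35-3. XTH18, a xyloglucan enzyme that loosens cell walls, differed by -1.15 within number 1 and 1.43 within number 2. Among the 7 was DFR, an enzyme of anthocyanin synthesis, at 3.79 and 6.55 in nar1-4 and 5.32 and 5.03 in nbp35-3. AT3G49960, of the root peroxidases, stood at 6.29 and 5.42 in nar1-4 and 7.45 and 4.38 in nbp35-3, the signs of the root marker medians.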

How the data were processed

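The authors' deposited table held log2 expression values per probe set that, per the submitters' processing notes, came from RMA (version not given in the sources used here). RMA corrects background and normalizes all arrays together, which removes differences in total RNA. Array medians were 5.70 to 5.83, and values were used as deposited. The number of arrays limits the precision. Of 22746 probe sets, 13513 named 1 gene in the platform annotation, 503 several and 8730 none. Symbols came from a RefSeq table (TAIR10.1), matching 13436 probe sets and 13286 genes.

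The contrast nbp35-3 minus nar1-4 was fitted with limma 3.58.1 in R 4.3.3, with 1 mean per genotype and the replicate number as a block, over all 6 arrays (2 residual degrees of freedom), and was checked on simulated data. Wild type entered only the spread. The spread of each probe set was moderated toward that of all probe sets (3.65 prior degrees of freedom). Every SE and p-value of the fit therefore also draws on other probe sets. The labels do not say that a number marks a shared batch. The pairing rested on how the comparison was defined, and differences between the numbers correlated at 0.674 between the mutants.

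Lists by locus held 540 genes, 129 measured, with 1 probe set per gene (the brightest). Iron storage had 0 measured. A measured gene is one named alone by a probe set. The other genes may lie among the probe sets naming several genes or none, so they are not shown to be absent from the array. Of 24 families by words 7 were described, 14 had under 5 genes, and 3 were set aside because the words matched other genes. Members and lists were chosen with earlier results of these data known. The text names probe sets naming 1 gene that were 2-fold apart in both numbers, the 10 of lowest p each way, all measured members of 3 lists, and other members with an unadjusted p under 0.05. This last choice, and the few genes given where a list had only 1 or 2, replaced a rule of 3 per list. Sequences were not used.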

Additional observations from a re-analysis of the deposited data

How the results depend on the processing

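Calls stayed at 0 without the replicate block, with the 4 mutant arrays alone, with a trended or robust prior, median centring, repeated quantile normalization, dim probe sets removed, probe sets naming 1 gene, and an adjusted p of 0.1. The smallest adjusted p was 1 without the block and 0.0617 over probe sets naming 1 gene. Leaving out each array in turn gave 0 to 105 calls. The calls came without nbp35-3 replicate 1 (105) or without nbp35-3 replicate 2 (63), each resting on a single array of that mutant, assumed to vary like the others. Of 76 genes followed, 10 and 7 then passed, AT2G04050, AT5G14940, AT1G08310 and AT2G41730 in both. Counts at an unadjusted p under 0.05 were 115 higher and 102 lower without the replicate block, 252 and 367 from the median brightness up, 368 and 376 over probe sets naming 1 gene, and 321 to 1561 higher and 396 to 1637 lower with an array left out. Probe sets 2-fold apart in both numbers were 3 higher, 11 lower and 20 opposite from the median brightness up, and 12 lower and 17 opposite over probe sets naming 1 gene. At 1.5-fold they were 51, 92 and 186, and with 1 number alone 142 to 186 higher and 146 to 188 lower. The fewer probe sets tested, or the single number, lower or raise these counts by construction. The cause of the other shifts was not tested. With 1 number alone the list medians were -1.24 to -0.40 for mitochondrial genes, -1.46 to -0.20 for iron genes and 0.20 to 0.27 for glutaredoxins. All 456 values of the 76 genes under settings that keep every mutant array had the main direction. For most of these settings that was fixed by construction. Leaving out the block or the wild type, or changing the prior, does not alter the difference itself. Only median centring and repeated quantile normalization could have turned a gene. When an array was left out, 11 genes turned. Their ranges were -0.061 to 0.96 for GRX480, -0.89 to 0.14 for AT1G06830, -0.20 to 0.63 for AT1G03020, -0.088 to 0.39 for AT4G15700, -0.063 to 0.16 for ROXY2, -1.39 to 1.0003 for AT2G47880, -0.54 to 0.49 for AT3G62960, -0.062 to 0.08 for ROXY1, -1.94 to 0.034 for AT3G12900, -0.57 to 0.014 for PYE and -0.63 to 0.46 for AT3G13610.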
